A study of Mus musculus with 3 samples.

Results

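T_cell_1 was the largest of the 4 T cell clusters that the authors named among the immune cells of the mouse kidney, and it held 2375 of the 20266 cells of the deposited table. Its members were the cells whose cluster label reads T_cell_1; T_cell_2 held 1664 cells, T_cell_3 held 1036 and T_cell_4 held 161. The cells came from perfused kidneys of untouched wild-type male C57BL/6J mice aged 10 weeks, cut into the cortex, the outer part of the medulla (OM) and its inner part (IM), digested with collagenase and DNase and sorted for the pan-leukocyte surface protein CD45. Droplet-based single-cell RNA sequencing was run at 3 facilities, Aachen, Bonn and Hamburg, so that the 3 compartments of each facility gave 9 libraries. All mice carried the same genotype and none was treated, and the only comparison in the design is that of compartment. The facility was taken as the replicate (n = 3), and how many animals stand behind each library was not given in the sources used here.

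T cells recognise peptides through a receptor that signals through the CD3 chains. CD4 T cells help other cells through surface ligands and cytokines, CD8 T cells kill, regulatory T cells carry the transcription factor Foxp3 and restrain the others, and invariant natural killer T (NKT) cells make several cytokines at once. Memory T cells that stay in a tissue lose the receptors that lead back to lymph and blood. The kidney medulla is known as a hypoxic and hypertonic tissue, unlike the cortex.

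T_cell_1 held 218, 146 and 306 cells of cortex, OM and IM in the Aachen libraries. Those of Bonn held 618, 53 and 145, and Hamburg had 543, 152 and 194. The summed counts of unique molecular identifiers (UMIs, 1 per captured transcript) ran from 130545 in the Aachen OM to 2075112 in the Bonn cortex. The median cell held 709.5 to 1057 UMIs in the Aachen libraries and 2957 to 3302 in those of Bonn and Hamburg, and mitochondrial UMIs were 0.89 to 2.30% of the total. The Aachen cells thus carried the fewest molecules per cell, while the Bonn OM held the fewest cells (53) and 196129 UMIs. The Aachen libraries were made with version 2 of the 10x chemistry and the others with version 3. They also stood apart in 2 other ways. The constant and variable genes of the T cell receptor (Trac, Trbc, Tcrg, Trbv, Trdc) were at 0 in all Aachen T cells, and the Aachen cells of each compartment carried 2 sets of barcodes, in which T_cell_1 made up 44.9 and 76.4% (cortex), 24.9 and 57.8% (OM) and 36.0 and 64.0% (IM) of the T cells. Cell barcodes were shared by 1 pair of T_cell_1 cells in each of 4 pairs of libraries and by none in the other pairs.

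T_cell_1 took a smaller part of the immune cells in the medulla than in the cortex. In Aachen it was 15.6% of the immune cells of the cortex (exact 95% interval 13.8 to 17.6%), 3.97% of those of the OM (3.36 to 4.65%) and 14.7% of those of the IM. In Bonn these shares were 16.9, 8.53 and 7.74%, and in Hamburg 22.2, 6.19 and 9.43%. Each facility had its highest share in the cortex, although the Aachen IM lay close to its cortex. The order of these 2 differed between the Aachen barcode sets. Cortex and IM had 16.1 and 13.4% in set 1, but 14.6 and 16.6% in set 2. The means were 18.2% ± 3.48 (SD, n = 3) in cortex, 6.23% ± 2.28 in OM and 10.6% ± 3.66 in IM. The medulla (mean of OM and IM) was 9.79 percentage points lower than the cortex (SD 4.15, per-facility differences -6.27, -8.73 and -14.4; exact permutation of compartments within facilities, two-sided p = 0.037, adjusted over 2 shares 0.037), which is the smallest p that 27 arrangements allow. A share cannot tell fewer T_cell_1 cells from more of the other immune cells, and the intervals cover counting error only.

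Among the cells of T_cell_1 to T_cell_4, T_cell_1 was again highest in the cortex of each facility. It was 51.5, 33.0 and 45.5% of those T cells in cortex, OM and IM of Aachen, 51.7, 44.9 and 49.8% at Bonn and 54.5, 33.3 and 30.4% at Hamburg. The cortex means differed little between facilities (52.6% ± 1.65), the medullary ones more (37.1% ± 6.80 in OM and 41.9% ± 10.2 in IM). The medulla was 13.1 points lower (SD 9.18; exact permutation p = 0.037, adjusted 0.037). The 2 Aachen barcode sets differed by more than this within 1 compartment, so the Aachen share moved with the set, whose origin is not given in the sources used here.

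**Figure D1:**
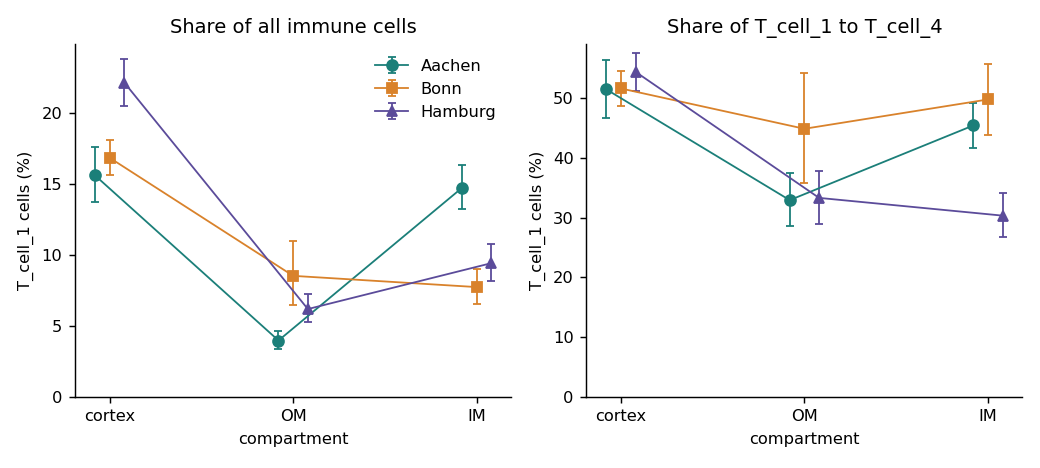
Share of T_cell_1 in each library (points, with exact 95% binomial intervals for counting error) by compartment, as a percentage of all immune cells (left) and of the cells of T_cell_1 to T_cell_4 (right), with 1 line for each facility. The cortex point lies highest in each of the 3 facilities in both panels, with the Aachen IM (14.7%) close to the Aachen cortex (15.6%) on the left.

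The next values describe what kind of T cell the cluster held. The clusters were drawn on these same genes, so levels are set side by side with no test. They are counts of a cluster in a facility, scaled to a total of 1000000 UMIs (CPM), given for Aachen, Bonn and Hamburg or as the mean of the 3 (SD, n = 3).

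The label held. Cd3e, a signalling chain of the receptor, was at 519, 1251 and 1105 CPM in T_cell_1, close to T_cell_2 (527, 1295 and 1107) and above T_cell_3 (274, 811 and 647). Cd3d was at 883 ± 160 CPM in T_cell_1, 969 ± 137 in T_cell_2, 768 ± 129 in T_cell_3 and 812 ± 130 in T_cell_4, a range within the spread between facilities. After each cell had been thinned to 500 UMIs (85 shallower cells of T_cell_1 left out), 39.4% of T_cell_1 cells held a UMI of Cd3e, against 0.43% of B cells. The costimulatory receptor Cd28 was highest in T_cell_1 in each facility (454 ± 210 CPM, against 294 ± 138 in T_cell_2, the next).

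CD4 lineage genes marked the cluster. Cd4 itself, the coreceptor for MHC class II, was at 78.3, 159 and 232 CPM, against 9.4, 11.9 and 12.7 in T_cell_2, and was highest in T_cell_1 in all 3 facilities. So were Zbtb7b, the factor that commits thymocytes to the CD4 lineage (47.8 ± 17.4 CPM, next T_cell_4 at 29.7), Cd40lg, the ligand with which helper T cells stimulate B cells and dendritic cells (330 ± 115, next T_cell_4 at 181), and Tnfrsf4, the costimulatory receptor OX40 (122 ± 64.3, against 3.7 to 7.1 elsewhere). Of the 5 listed CD4 lineage genes only Icos, an inducible costimulator, was higher elsewhere, at 446 CPM in T_cell_4 against 207 in T_cell_1. Over all genes with a mean of at least 10 CPM in any of the 4 clusters, 531 of 8816 lay above the other 3 clusters in all 3 facilities.

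CD8 genes were low in T_cell_1. Cd8b1 was at 135, 26.3 and 56.5 CPM, against 1166, 1199 and 1056 in T_cell_2, with no overlap, and Cd8a was at 46.9 ± 17.7 CPM against 715 ± 162. Per cell the coreceptors were sparse. Cd4 was found in 7.64% of thinned T_cell_1 cells and in 0.43, 4.01 and 1.27% of T_cell_2, T_cell_3 and T_cell_4, beside 0.12% of B cells, a type that lacks it (median UMIs before thinning 2679 in T_cell_1 and 2396 in B cells). Neither Cd4 nor a Cd8 gene was found in 89.3% of the thinned T_cell_1 cells, and 3.10% held Cd8 without Cd4. Without thinning, 28.6% of T_cell_1 cells (679) held Cd4 and 3.79% (90) held Cd8a, so most cells could not be assigned to a lineage one by one at this depth.

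Genes of gamma delta and type 17 T cells were higher in another cluster. None of the 9 measured gamma delta genes and none of the 11 type 17 genes was highest in T_cell_1. Their median log2 differences from the mean of the other clusters were -0.74 and -0.56, against 0.24 over the 8816 genes. Il17a, the cytokine of type 17 cells, was at 7.7 CPM against 465 in T_cell_4 on average. Maf, a factor that type 17 cells share with other T cells, was at 244 ± 33.7 CPM, below T_cell_4 (423 ± 153) but above T_cell_2 (41.9 ± 1.8). Trdv4, a variable segment of the delta chain, was at 7.9 (Bonn) and 11.4 CPM (Hamburg) against 1134 and 852 in T_cell_4.

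Genes of type 1 T cells were high in T_cell_1. Interferon gamma (Ifng) was at 455, 190 and 1120 CPM, like T_cell_2 (482, 167 and 813) and far above T_cell_3 (56.2, 2.7 and 25.3). Tbx21, the type 1 master factor T-bet, was at 156 ± 74.4 CPM against 117 ± 53.7 in T_cell_2 and 9.0 ± 2.0 in T_cell_3, and Cxcr3, a chemokine receptor of type 1 cells, was at 371 ± 187 against 250 ± 129. Both were highest in T_cell_1 in each facility. The cytotoxic genes were not. Ccl5, a chemokine of killer cells, was at 2414 CPM against 17143 in T_cell_2, the granzyme Gzma at 34.9 against 522, and Eomes, a factor of killer cells, at 3.7 against 77.6. In all, 5 of 22 type 1 and cytotoxic genes were highest in T_cell_1 by the mean and 4 in each facility, against 531 of the 8816 genes. Their median log2 difference from the mean of the other clusters was 1.73, against 0.24 over the 8816 genes.

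Residency and recirculation genes split the clusters. Cxcr6, a chemokine receptor of tissue-resident T cells, was at 400, 1149 and 631 CPM in T_cell_1 against 30.0, 45.8 and 18.3 in T_cell_3, though T_cell_4 was higher still (735, 1433 and 925). Rgs1, a brake on chemokine receptor signalling, was at 1534 CPM against 121 in T_cell_3, and Cd44, an adhesion receptor of memory cells, at 174 against 33. The lymph node homing genes went the other way. Ccr7, a chemokine receptor, was at 22.6, 23.8 and 59.8 CPM against 210, 566 and 1189 in T_cell_3, and Lef1, a factor of naive T cells, was at 73 CPM against 529. Only 1 of 15 naive and circulating genes was highest in T_cell_1 by the mean, against 8 of 20 residency genes. Above the other clusters in each facility were 0 and 4 of them, against 531 of the 8816 genes.

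Interferon-response genes were highest in T_cell_1 by the mean over facilities for all 23 of the 24 listed genes that reached 10 CPM, and 13 of them were highest in each facility. Their median log2 difference from the mean of the other clusters was 1.26, against 0.24 over the 8816 genes. Isg15, a ubiquitin-like protein, was at 210, 127 and 185 CPM against 72.4, 102 and 75.8 in T_cell_2, and Ly6a was at 666 ± 319 against 230 ± 143. Ifit3, which binds viral RNA, was at 62.1 CPM against 21.9, but its 345 UMIs lay in 115 cells (4.84%), with 27 in 1 cell. Immediate early genes were highest in T_cell_1 by the mean for 12 of 26 and in each facility for 7, against 531 of the 8816 genes. Egr1 among them varied more between facilities than between clusters (210, 149 and 1178 CPM in T_cell_1).

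Ranked by the smallest log2 difference to the next cluster over the 3 facilities, among genes of at least 50 CPM in any of the clusters, the genes that stood highest in T_cell_1 were Il4, Mmp9, Egr1, Tnfrsf4, Rcbtb2, Lyst, Arl4d, Ccl1, Hif1a, Ifit3, Slamf1 and Ccr8. Mmp9 encodes a matrix protease (67.1 CPM against 3.6 in T_cell_2), Hif1a the hypoxia-inducible factor (192 against 94.4 in T_cell_4), and Ccl1 the ligand of the receptor Ccr8 (96.3 and 63.8 CPM). Those lowest included the ribosomal genes Rps19 (3180 CPM, against 7966 in T_cell_3) and Rpl36a (1172 against 2837), the LIM protein gene Pdlim1 (14.0 against 90.8) and the chromatin protein gene Hmgn1 (50.7 against 158). The plot of lineage and state genes sets the 4 clusters side by side.

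**Figure D2:**
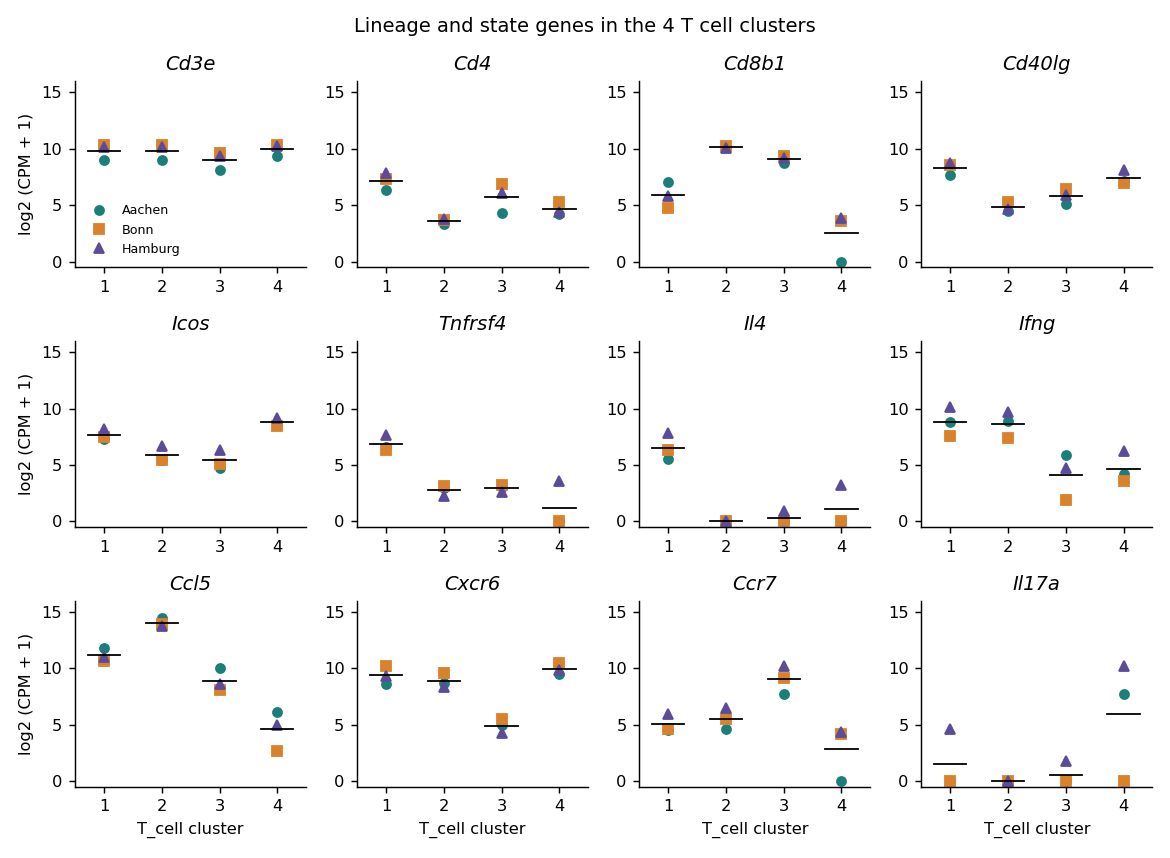
Level of 12 genes in the 4 T cell clusters as log2(CPM + 1), with 1 point per facility and a bar at the mean of the 3 log2 values. T_cell_1 (first column) has the highest Cd4, Cd40lg, Tnfrsf4 and Il4 of each facility, Cd8b1 below T_cell_2, Ccr7 below T_cell_3, and Ifng close to T_cell_2.

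Il4, the cytokine of type 2 and NKT cells, was counted almost only in T_cell_1 among the 4 clusters. It was at 43.8, 78.6 and 226 CPM there, at 0.31 in T_cell_3 and 2.80 in T_cell_4, and gave 0 UMIs of 4695056 in T_cell_2, which allows up to 0.64 CPM (a floor of 3 UMIs). A UMI of Il4 was found in 302 T_cell_1 cells (12.7%). Of these, 62.6% also held Ifng, against 41.4% of the other cells, 27.5% held Zbtb16, the factor PLZF of NKT cells (others 6.90%), and 85.1% held Cxcr6 (others 59.6%). Cd4 went the other way (18.5 against 30.1%), as did Tnfrsf4 (3.64 against 12.9%), and Foxp3 was found in 0 of 302, which allows a share of cells with a UMI of up to 0.993% and sets no limit on cells that express it. The cells with Il4 were deeper (median 3376.5 against 2567 UMIs), and they were pooled over facilities that differed in these genes. In the cortex of Aachen, Bonn and Hamburg, Il4 was found in 4.13, 15.4 and 22.8% of cells and Ifng in 37.2, 30.9 and 70.5%. The parts of depth and of facility in the differing shares were not tested. Traj18, the joining segment of the invariant NKT receptor, gave 38 UMIs in the cluster, and the type 2 cytokine Il5 gave 0.

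A small set of cells held Foxp3: 59 of 2375 had a UMI of it. Their depth was close to that of the others (median 2827 against 2674.5 UMIs). Other genes of regulatory T cells were frequent in them: Ikzf2, the factor Helios (76.3 against 13.3% of the other cells), Ctla4, an inhibitory receptor (71.2 against 16.2%), Tnfrsf4 (67.8 against 10.3%) and Il2ra, the alpha chain of the interleukin 2 receptor (25.4 against 4.97%). Cxcr6 was found in 15.3% of them against 64.0% of the other cells. By library and without thinning, cells with Foxp3 made up 3.72, 3.77 and 10.3% of T_cell_1 in cortex, OM and IM of Bonn. In Hamburg they made up 0.921, 3.95 and 3.61%, while Aachen, with the shallowest cells, had 0, 1 and 0 such cells.

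Ccl1 was made by few cells. Its 765 UMIs lay in 31 cells, 189 of them in 1 cell. Of those 31, 48.4% held Ccr8 (others 8.62%), 45.2% Tnfrsf4 (others 11.3%) and 25.8% the cytokine gene Csf2 (others 2.60%), at a median depth of 4654 against 2663.5 UMIs. Of the 59 cells with Foxp3, 0 held a UMI of Ccl1, which allows a share of cells with a UMI of up to 5.08%. These cells with Il4, Foxp3 or Ccl1 were picked by a gene of the same table and pooled over the 3 facilities, which hold unlike parts of them. The differences between them and the rest are descriptions.

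The second question was whether T_cell_1 cells of the medulla differed from those of the cortex. The counts of each library were summed, and 6770 genes were tested with edgeR's quasi-likelihood test, facility as block and Benjamini-Hochberg adjustment. With both medullary compartments set against the cortex, 13 genes passed (0.192% of those tested), of which 9 were higher (0.133%) and 4 lower (0.0591%), and 439 genes had an unadjusted p under 0.05. Levels per library below are CPM scaled by TMM, in the order cortex, OM, IM, and log2 differences are those of the fit (± SE, n = 3 facilities). All calls but that of Cd81 sat just under the threshold and rested on few libraries: without Hamburg the 13 calls became 0, as they did without the Aachen OM library alone and without the facility block. DESeq2 called only Cd81 (1.38, adjusted p = 0.000369), which passed in 9 of 12 fits that left out a replicate or a library.

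Genes of activated and regulatory T cells, receptors and transcription factors, made up 4 of the 9 higher genes. Tnfrsf4 (chr4:156013843-156016612, plus strand, mm10) was at 122, 151 and 93.0 CPM at Aachen, 34.8, 70.2 and 208 at Bonn and 98.1, 275 and 340 at Hamburg. Both medullary libraries lay above the cortex in Bonn and Hamburg, whereas the Aachen IM lay below it, and the groups overlapped across facilities. In the Aachen cortex a single cell held 18 of the 25 Tnfrsf4 UMIs, so that cell weighed on the level there and on the Aachen difference. The log2 difference was 1.58 ± 0.27 (adjusted p = 0.0454), with per-facility differences of -0.04, 1.73 and 1.61. Counted as cells with a UMI, without thinning, Tnfrsf4 was found in 3.21, 6.16 and 5.23% of T_cell_1 cells at Aachen, 6.63, 18.9 and 26.2% at Bonn and 12, 24.3 and 28.4% at Hamburg. These shares were higher in OM and in IM than in cortex at each facility.

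Pdcd1 (chr1:94038305-94052553, minus strand), which encodes the inhibitory receptor PD-1, was at 43.8, 35.4 and 46.5 CPM at Aachen, 46.5, 65.8 and 93.5 at Bonn and 37.6, 85.8 and 151 at Hamburg. It climbed from cortex over OM to IM in Bonn and Hamburg and was flat in Aachen. The log2 difference was 1.13 ± 0.23 (adjusted p = 0.0454).

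Foxp3 (chrX:7573644-7595245, plus strand) was at 0, 8.86 and 0 CPM in Aachen, where the OM value was 1 UMI, 24.1, 48.2 and 72.4 in Bonn and 5.83, 18.9 and 20.1 in Hamburg (log2 difference 1.53 ± 0.30, adjusted p = 0.0454). Ikzf2 was at 136, 257 and 136 CPM at Aachen, 89.9, 171 and 214 at Bonn and 32.9, 70.4 and 88.4 at Hamburg (1.09 ± 0.20, adjusted p = 0.0454). In both genes each medullary library of Bonn and Hamburg lay above its own cortex, while Bonn as a whole was above Hamburg, and the Aachen IM equalled its cortex.

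All 7 tested regulatory T cell genes had a positive log2 difference (median 0.67, against 0.000 for all 6770 genes tested, of which 3388 were positive), of which 2 passed the test, Foxp3 and Ikzf2. The others were Capg (0.76, adjusted p = 0.430), Izumo1r, the folate receptor 4 (0.67, 0.360), Ctla4 (0.62, 0.558), Il2ra (0.37) and Tnfrsf18, the receptor GITR (0.30), which did not pass. With the 59 cells that held Foxp3 removed, an alternative added after the data were seen, 5 of the 13 calls were left, Tnfrsf4, Nrgn, Cd81, Fgl2 and Gm8797. Most of the lost calls kept their size: Pdcd1 had 1.09, Ikzf2 0.91, Ramp1 0.94, Cd9 1.42, Ccl1 2.93, Pgm2l1 -0.999 and Ccr9 -1.58, and Foxp3 itself was no longer counted. Only cells with a UMI of Foxp3 were removed, and cells that express it without a UMI stayed. Of the 2316 cells left, 309 held Ikzf2 and 376 held Ctla4. The part of regulatory T cells in these differences was not tested.

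Membrane and signalling genes followed. Cd81 (chr7:143052739-143067934, plus strand), a tetraspanin that many immune cells carry, had the smallest adjusted p. It was at 146, 257 and 349 CPM at Aachen, 25.4, 43.9 and 95.3 at Bonn and 14.3, 30.9 and 52.2 at Hamburg, so that cortex, OM and IM stood in the same order in each facility and Aachen lay above the others throughout (1.37 ± 0.20, adjusted p = 0.0106). Macrophages also express Cd81, and macrophage transcripts moved with it in Aachen. The summed macrophage list, Cd81 included but without Cd74, H2-Aa and H2-Ab1, took 16.2, 43.9 and 40.9 of 10000 UMIs there. It took 2.18, 0.87 and 1.57 in Bonn and 0.79, 1.76 and 1.24 in Hamburg. Cd81 itself was a larger part of the sum in Bonn and Hamburg (54 UMIs of 503956 in the Bonn IM).

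Of the T_cell_1 cells with a Cd81 UMI, 46 of 71 in Aachen (64.8%) also held the macrophage complement gene C1qa, against 8.18% of the other cells, in Bonn 3 of 60 (5%) against 0.926%, and in Hamburg 3 of 59 (5.08%) against 0.723%. Without Aachen the difference was 1.47 (adjusted p = 0.0100), and without Hamburg 1.31 (adjusted p = 0.455). In Bonn and Hamburg the cells with Cd81 held Foxp3 more often (13.3 against 4.23% and 8.47 against 1.57%). Of the 11 tested macrophage genes 10 had a positive difference (median 0.63, against 0.000 for all genes) and only Cd81 passed. With each cell thinned to 500 UMIs, a fit in which Cd81 had too few counts to be tested, myeloid and antigen-presenting genes were called higher in the medulla: Apoe (1.72, adjusted p = 0.00511), Cst3 (0.95, 0.0371) and Cd74 (0.91, 0.0251). In the OM alone they had 2.48, 1.57 and 1.05. The part of macrophage transcripts in the difference of Cd81 was not tested.

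Cd9, another tetraspanin, was at 9.74, 53.1 and 33.2 CPM at Aachen, 10.3, 17.5 and 31.8 at Bonn and 19.6, 56.6 and 33.5 at Hamburg (1.38 ± 0.27). Its Aachen cortex value was 2 UMIs and its Bonn OM value 4. Ramp1 (chr1:91179822-91225196, plus strand), a subunit of the receptor for the neuropeptide CGRP, was at 43.8, 142 and 76.4, 50.8, 87.7 and 131, and 45.6, 72.1 and 76.3 CPM (1.02 ± 0.20). In both genes no medullary library of a facility fell to its cortex, and for Ramp1 the 3 cortex libraries lay below all 6 medullary ones. Both had an adjusted p of 0.0454.

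The chemokine gene Ccl1 (chr11:82176657-82305690, minus strand) was higher too. It was at 0, 186 and 0 CPM at Aachen, 64.5, 333 and 536 at Bonn and 13.3, 10.3 and 245 at Hamburg (2.88 ± 0.56, adjusted p = 0.0454). These levels rest on the 31 cells described above, with 0, 5 and 0 cells at Aachen, 7, 3 and 4 at Bonn and 3, 2 and 7 at Hamburg, so single cells set the value of a library. Nrgn, a calmodulin-binding protein, was called on still fewer molecules (81 UMIs in 25 cells, 22 in 1 cell; 2.81 ± 0.51, adjusted p = 0.0454).

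The 4 genes that were lower in the medulla had an adjusted p of 0.0454. Ccr9, the chemokine receptor that leads T cells to the gut, was at 34.1, 0 and 19.9 CPM at Aachen, 28, 13.2 and 7.06 at Bonn and 35.5, 10.3 and 9.37 at Hamburg (-1.65 ± 0.33), with every medullary library below every cortex library. Few molecules set that order: 7, 0 and 6 UMIs at Aachen, 65, 3 and 4 at Bonn and 67, 6 and 7 at Hamburg. Fgl2, a secreted fibrinogen-like protein, was at 282, 168 and 183, 491, 338 and 266, and 251, 117 and 169 CPM (-0.70 ± 0.13), and Pgm2l1, an enzyme of sugar phosphates, at 77.9, 26.6 and 39.8, 37.4, 21.9 and 15.9, and 71.1, 34.3 and 33.5 CPM (-1.02 ± 0.20). Both were lower in each medullary library than in the cortex of the same facility. The predicted gene Gm8797 was almost absent outside Aachen, at 1865, 638 and 1036 CPM there and at most 6.86 elsewhere (-1.03 ± 0.20).

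**Figure D3:**
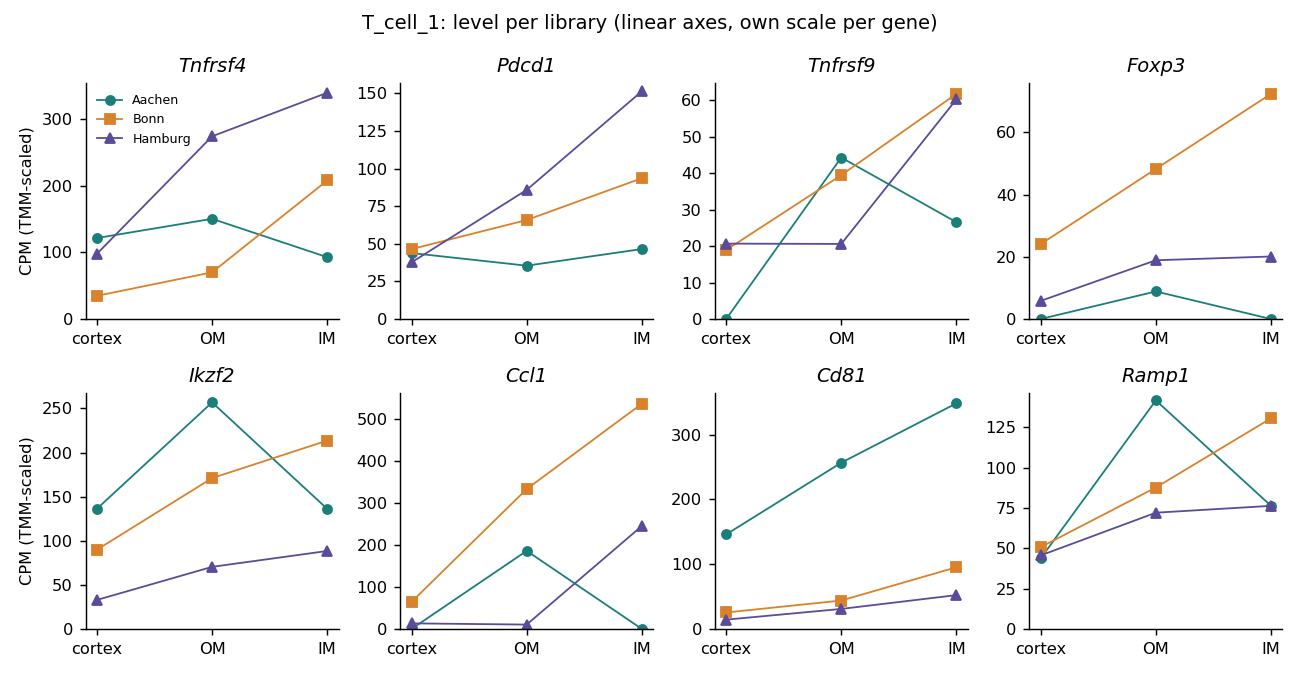
CPM scaled by TMM in cortex, OM and IM for 8 genes in T_cell_1 cells, with 1 line per facility (n = 1 library per point, axis from 0 for each gene). Tnfrsf4 and Pdcd1 rise toward the IM in Bonn and Hamburg (Tnfrsf4 to 208 and 340 CPM) but not in Aachen, whereas Cd81 rises in each facility from a different base. A single cell held 18 of the 25 Tnfrsf4 UMIs of the Aachen cortex.

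In the IM against the cortex, 10 genes were higher (0.148% of those tested) and 0 lower by edgeR, with 402 at an unadjusted p under 0.05 and 1 call by DESeq2. They included Cd81 (1.69 ± 0.20, adjusted p = 0.000766), Tnfrsf4 (1.80 ± 0.29, 0.0177), Pdcd1 (1.43 ± 0.24, 0.0177), Ccl1 (3.45 ± 0.58, 0.0177) and Foxp3 (1.65 ± 0.32, 0.0489). The remaining 5 were not called for the medulla as a whole. Tnfrsf9, the costimulatory receptor 4-1BB, was at 0, 44.3 and 26.6 CPM at Aachen, 18.9, 39.5 and 61.8 at Bonn and 20.7, 20.6 and 60.3 at Hamburg (1.69 ± 0.31, adjusted p = 0.0373), with the IM above the cortex at each facility.

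Tnfsf11, the cytokine RANKL, was at 24.3, 8.86 and 9.96 CPM at Aachen, 36.1, 52.6 and 97.1 at Bonn and 80.1, 82.4 and 173 at Hamburg (1.19 ± 0.22, adjusted p = 0.0379), with Aachen in the opposite direction. Ccr8 was at 31.4, 39.5 and 86.5 CPM in Bonn and 110, 158 and 185 in Hamburg and at 0, 0 and 3.32 in Aachen, where the IM value was 1 UMI (1.08 ± 0.21, adjusted p = 0.0493). Ikbke, a kinase of interferon and NF-kappaB signalling, was at 4.87, 8.86 and 23.2, 21.1, 26.3 and 56.5, and 17, 24.0 and 41.5 CPM (1.44 ± 0.26, adjusted p = 0.0318), in the same order of compartments at each facility. Ctss, a lysosomal protease that macrophages carry too, was at 287, 292 and 515 CPM in Aachen and 59.9 to 123 elsewhere (0.84 ± 0.16, adjusted p = 0.0379).

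The checkpoint list holds inhibitory and costimulatory receptors and also the transcription factors Tox, Nr4a1, Nr4a2 and Nr4a3. It gave 18 tested members with a median difference of 0.45 for the medulla. In the IM their median was 0.63, 15 were positive and 3 passed (over all 6770 genes 0.006, 3453 and 10). B cell markers moved in the same comparison, with a median of 0.68 in the IM and 6 of 6 tested genes positive (0 calls by edgeR, 1 at an unadjusted p under 0.05), and their part in it was not tested. Lag3 (1.48 in the IM, adjusted p = 0.270), Tigit (1.02, 0.126) and Tox, a factor of chronically stimulated T cells (0.78, 0.184), did not pass.

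The promoter windows of the higher genes are shown because the products of several are receptors that T cells acquire on activation, and the motifs of the activation factors AP-1 (TGANTCA) and NF-kappaB (the kappaB motif: 3 G, any 2 bases, 3 T, 2 C) can be read in them on both strands. Of the 14 genes that were higher in the medulla or the IM, 13 had an entry in the RefSeq promoter table (GRCm38.p6, 250 bases before to 50 after a start, 15 windows). AP-1 letters were found in 2 genes and kappaB letters in 2. In RefSeq as a whole, 32851 windows were searched, and 7.81% held the first and 1.63% the second. Capitals mark the matches in Tnfrsf9 (chr4:150927749-150928048, plus strand, the second of its starts), Ikbke (chr1:131279514-131279813, minus strand) and Cd9 (chr6:125494711-125495010, minus strand, motif on the opposite strand). The window of Tnfrsf4 (chr4:156013445-156013744, plus strand) held neither motif and is printed for comparison. A match is only a run of letters.
Tnfrsf9: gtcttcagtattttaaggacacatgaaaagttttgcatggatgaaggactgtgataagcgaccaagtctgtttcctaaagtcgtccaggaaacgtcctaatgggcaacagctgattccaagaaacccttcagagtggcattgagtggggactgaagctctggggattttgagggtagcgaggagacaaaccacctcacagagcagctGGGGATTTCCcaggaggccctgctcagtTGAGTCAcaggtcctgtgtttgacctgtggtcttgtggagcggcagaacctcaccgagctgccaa
Ikbke: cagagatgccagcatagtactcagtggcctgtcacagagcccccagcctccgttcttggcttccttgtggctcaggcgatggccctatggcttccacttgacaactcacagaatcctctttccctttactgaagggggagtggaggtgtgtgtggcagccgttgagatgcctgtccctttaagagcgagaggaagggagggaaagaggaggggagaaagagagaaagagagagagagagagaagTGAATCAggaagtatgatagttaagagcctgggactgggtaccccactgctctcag
Cd9: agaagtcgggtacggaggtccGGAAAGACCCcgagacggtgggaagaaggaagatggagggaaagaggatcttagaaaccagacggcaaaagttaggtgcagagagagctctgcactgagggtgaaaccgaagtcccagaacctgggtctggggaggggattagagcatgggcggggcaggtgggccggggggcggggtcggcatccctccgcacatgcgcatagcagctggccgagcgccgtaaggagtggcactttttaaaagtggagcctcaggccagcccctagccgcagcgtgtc
Tnfrsf4: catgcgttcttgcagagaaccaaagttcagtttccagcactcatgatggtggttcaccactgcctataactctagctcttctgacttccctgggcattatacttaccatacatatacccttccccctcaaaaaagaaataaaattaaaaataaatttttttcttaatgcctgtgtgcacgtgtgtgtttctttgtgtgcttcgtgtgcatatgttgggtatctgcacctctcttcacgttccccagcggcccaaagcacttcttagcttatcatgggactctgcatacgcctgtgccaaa

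In the OM against the cortex 2 genes passed (0.0295% of those tested, with 1 higher, 0.0148%, and 1 lower, 0.0148%), and 407 were at an unadjusted p under 0.05. AY036118, a noncoding RNA gene on chr17, was at 930, 2561 and 1301 CPM in Bonn and 751, 1109 and 830 in Hamburg but at 6.64 to 9.74 in Aachen (1.07 ± 0.18, adjusted p = 0.0311). Trbv29, a variable segment of the receptor beta chain, was at 158, 61.4 and 154 CPM in Bonn and 151, 10.3 and 157 in Hamburg and at 0 in Aachen (-2.48 ± 0.39, adjusted p = 0.0311). Both values thus come from Bonn and Hamburg. For AY036118, 1 cell held 174 of the 584 UMIs of the Bonn OM and another 203 of the 646 UMIs of the Hamburg OM, so that single cells weigh on these values. The 2 medullary compartments did not differ past the threshold in any gene: edgeR gave 0 calls, with 277 genes whose unadjusted p lay under 0.05, and DESeq2 gave 0 calls with 129.

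Beside Tnfrsf4, Foxp3 and Ccr9, most lineage and state genes of the cluster did not pass between compartments. Cd3e differed by -0.10 ± 0.10 between medulla and cortex, Cd4 by 0.35 ± 0.15 (adjusted p = 0.694) and Cd8a by 0.47. Cxcr6 was at 643, 266 and 462 CPM at Aachen, 1134, 925 and 600 at Bonn and 681, 462 and 503 at Hamburg, and each medullary library lay below its cortex, but the difference of -0.54 ± 0.14 did not pass (adjusted p = 0.216). Il7r, the receptor for the survival cytokine interleukin 7, had 0.74 ± 0.18 (adjusted p = 0.162), and Ccr7 0.99 (0.500). The share of thinned cells with Cd4 was 2.20 percentage points higher on average in the medulla (-1.46, 0.657 and 7.41 by facility; exact permutation p = 0.296), and that with Cd8a 1.21 points (exact permutation p = 0.111, adjusted 0.222).

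Of the 20 tested type 1 and cytotoxic genes 3 had a positive difference, none passed by edgeR, and 11 were lower at an unadjusted p under 0.05 (median -0.33). Over all 6770 genes 204 were lower at that level and 3388 had a positive difference. Ifng had -0.32, Tbx21 -0.32 and Il12rb2, a receptor chain for interleukin 12, -0.65. The residency list had a median of -0.10 over 19 genes with 0 calls, the naive list 0.17 over 12 with Ccr9 as its 1 lower call, and the interferon list -0.12 over 21 with 0 calls. In the interferon list the OM had a median of -0.46 (2 of 21 positive) and the IM one of 0.10 (15 positive). Over all 6770 genes 3383 were positive in the OM and 3453 in the IM.

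Lists that follow the surroundings of the medulla or the handling of the tissue lay near the median of all genes. The hypoxia list had a median of 0.05 over 18 tested genes, the osmotic list 0.03 over 8, the immediate early list 0.09 over 26 and the heat shock list -0.13 over 14, each with 0 calls by edgeR. No nephron gene of the list had enough counts to be tested in T_cell_1, and the 6 tested B cell genes had a median of 0.05 with 0 calls, made of -0.30 in the OM and 0.68 in the IM.

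Whether the medullary differences were particular to T_cell_1 was asked with the summed cells of T_cell_2 to T_cell_4. In these sums 0 genes were higher and 1 lower in the medulla, over 6476 tested. The lower gene was Gm8797 (-1.20, edgeR adjusted p = 0.00187), which was also among the genes called lower in T_cell_1 (-1.03). The differences of the effects themselves gave 0 calls over 7361 genes (0% of those tested) by edgeR, with 246 at an unadjusted p under 0.05, and 0 by DESeq2 (126). Ramp1 had an interaction of 1.08 (unadjusted p = 0.00126, adjusted p = 1) and Pgm2l1 one of -1.18, so no difference was shown to belong to T_cell_1 alone. Cd81 had a log2 difference of 0.45 in T_cell_2 to T_cell_4 and of 0.11 in B cells of the same libraries.

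**Figure D4:**
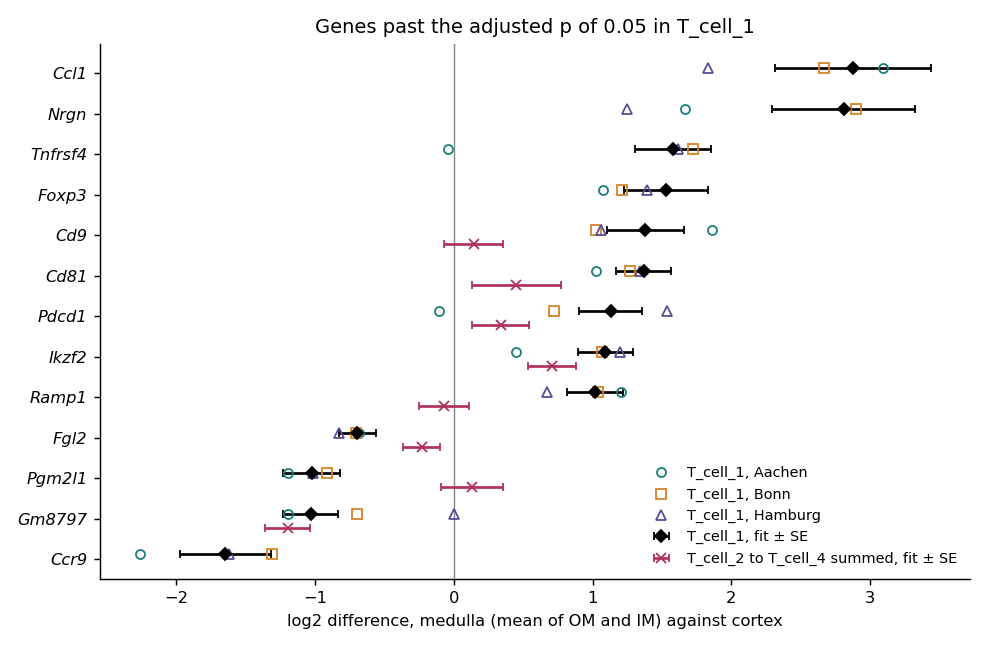
Log2 difference between medulla (mean of OM and IM) and cortex for the 13 genes past an adjusted p of 0.05 in T_cell_1, with the fit and its SE (diamonds), each facility (open symbols), and the fit in the summed cells of T_cell_2 to T_cell_4 (crosses, with SE) where it was tested. Aachen lies at -0.04 for Tnfrsf4 and -0.10 for Pdcd1 against 1.73 and 0.73 in Bonn. The Aachen value for Tnfrsf4 leans on a single cortex cell, which held 18 of the 25 UMIs there.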

How the data were processed

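Per the paper's methods, the authors mapped the reads with Cell Ranger to the mouse genome mm10, filtered cells on their number of detected genes and share of mitochondrial reads, integrated the datasets and clustered them in Seurat. The deposited table holds expected counts of UMIs per gene and cell, not scaled to library size, with the compartment, cluster and facility of each cell. Values are whole in the Aachen and Bonn cells and exactly whole for 0.118% of the Hamburg values. Each value was rounded to a whole number cell by cell before the sums per library were taken, so small fractions in Hamburg cells were dropped. How that changed the Hamburg values was not tested. How doublets were treated was not given in the sources used here, and no caller was run.

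Sums of T_cell_1 cells (9 libraries of at least 10 cells) were filtered with filterByExpr, scaled by TMM and fitted by the quasi-likelihood method (glmQLFit, glmQLFTest) in edgeR 4.0.16 under R 4.3.3, the facility being the block, with a Benjamini-Hochberg threshold of 0.05. The 3 compartments of a facility come from 1 dataset, and their deviations from the compartment means correlated at 0.664 to 0.872 (9 pairs of libraries, 6770 genes), against -0.780 to 0.515 between facilities (18 pairs). Deviations from a mean of 3 facilities cancel within a compartment, which pulls the values between facilities down, so this contrast is partly built in. For differences per facility, a prior count of 2 was added before the log2 of CPM. T_cell_2 to T_cell_4 were summed for the test of a difference between effects, and B cells for side values. Shares used exact permutations within facilities. Shares of cells with a UMI were taken after thinning to 500 UMIs for the T cell clusters, B cells and the Cd4 and Cd8a test, unless stated. All other shares of cells with a UMI were not thinned, so they are not matched for depth. These include those of cells with Il4, Foxp3, Ccl1 or Cd81 and those of Foxp3 and Tnfrsf4 by library. DESeq2 1.42.0, other filters and scalings, and fits without 1 library or replicate were alternatives. The fit was tested on simulated counts. Named genes were those past the threshold with the largest changes and 1 sign in the 3 facilities, list members past the threshold, 20 fixed lineage and state genes, and the 12 highest and 12 lowest genes beside the other clusters. Genes with a UMI in a few cells, and Il4, were followed after their values were seen. Cluster, gene lists (29) and tests were chosen with earlier results of these data known. Gene positions are from GENCODE vM21 (GRCm38, the assembly of mm10). Some genes of the rule are not reported here.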

Additional observations from a re-analysis of the deposited data

Results flagged for a closer look

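Ramp1 was singled out because the 3 facilities moved in opposite directions in the 2 sets of cells compared. In T_cell_1 its mean log2 difference between medulla and cortex was 0.97, positive in 3 of 3 facilities, and in the summed cells of T_cell_2 to T_cell_4 it was -0.296, negative in 3 of 3, although the fitted difference of those cells was -0.07 ± 0.18 (edgeR adjusted p = 1). The edgeR test of the difference gave an interaction of 1.08 with an unadjusted p of 0.00126 and an adjusted p of 1 over 7361 genes, so the difference did not pass the correction.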

How the results depend on the processing

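The number of genes past the threshold depended on the setting. For medulla, OM and IM against cortex and for OM against IM the main counts were 13, 2, 10 and 0. With no replicate block, that is without the pairing by facility, they were 0, 0, 0 and 0. DESeq2 gave 1, 8, 1 and 0 (in the OM it gave an adjusted p to only 339 genes). With no filter on low counts they were 74, 43, 67 and 35, with cells thinned to 500 UMIs 6, 8, 0 and 2 (only 5 of the 13 medulla and 4 of the 10 IM genes could be tested), without the 672 cells with markers of other cell types 0, 2, 0 and 1 (7 of the 13 and 5 of the 10 could be tested, and Cd81, itself such a marker, could not), and without cells holding Foxp3, a choice made after seeing the data, 5, 0, 8 and 4. Scaling by relative log expression gave the main counts. Leaving out a library or a replicate gave 0 to 25, 0 to 12, 0 to 30 and 0 to 9 genes. For the medulla the count was 0 without replicate 3 (Hamburg) or the Aachen OM, 3 without the Hamburg cortex, 2 without the Hamburg IM, 25 without the Aachen IM and 20 without the Bonn OM. For the IM it was 0 without Hamburg, 3 without its cortex, 4 without its IM and 30 without the Aachen IM. The interaction count of 0 became 9 with no filter and 0 to 1 with a replicate left out (Trdv4 without Bonn).

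The share of T_cell_1 among immune cells was lower in the medulla by -11.5 to -7.50 percentage points with a facility left out, and that among T cells by -17.5 to -8.31. With 2 facilities the smallest p is 0.111, so these could not pass. The difference in cells with Cd4 was -0.403 points without replicate 3, the reverse of the main value, and -0.403 to 4.03 over the facilities left out, and without thinning it was 6.69 points. That with Cd8a was 0.422 to 1.72. Over the named genes, 259 values kept their side of the threshold, 233 no longer passed and 6 newly passed. The cause was not tested. The Aachen cells are the shallowest, and the Bonn OM library has the fewest cells (53).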
